A study of Mus musculus with 6 samples.

Results

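The nuclear envelope of a cell rests on a meshwork of lamins, and its RNAs were followed here through 9 genes: the lamin genes Lmna, Lmnb1 and Lmnb2, the lamina partners Lbr, Tmpo, Emd and Banf1, and the linker genes Sun1 and Sun2. They were chosen by name, as the rows of the deposited table with these symbols, with earlier results of these data known. All 9 were found among 55487 genes and all 9 passed the filter on low values, which 17278 genes passed.

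RNA-seq was done on sorted YFP-positive cells of the adult mouse subventricular zone (SVZ), the neurogenic niche beside the lateral ventricles. The 3 THC libraries came from mice of the genotype Rb(F/+);p107(+/-);p130(F/+), and the 3 TKO libraries from mice that were Rb(F/F) and p130(F/F) as well as p107(-/-), on a mixed C57BL/6 and Sv/129 background. All mice of both genotypes carried a Nestin-driven, tamoxifen-inducible Cre and a YFP reporter at R26. They received 200 mg/kg tamoxifen per day by gavage over 5 days, starting at 6 to 10 weeks of age, and were sampled 10 days afterwards. THC mice were thus not wild type, since they too could lose 1 allele of each floxed gene. Each library pooled several mice and at least 200000 cells, and YFP marks cells that switched on Cre together with their progeny, whatever these have become. Replicate 1 of each genotype belongs to a February batch and replicates 2 and 3 to a November batch.

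Lamins are intermediate filament proteins that line the inner face of the nuclear envelope. Lamin A and lamin C, both made from Lmna, are typical of differentiated and mechanically loaded cells, while the B-type lamins from Lmnb1 and Lmnb2 are present in most cells and are needed for brain development. Membrane proteins of the lamina (LBR, LAP2, emerin) and the small DNA-binding protein BAF tie chromatin to the envelope and help rebuild it after mitosis, and SUN proteins span the inner membrane to connect the lamina with the cytoskeleton. Loss of lamin B1 is a widely used sign of cellular senescence, whereas dividing cells keep making it, so the question set for Lmnb1 was whether it moved with cycling genes or fell. The pocket proteins pRb, p107 and p130 restrain E2F-driven cell-cycle genes.

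Libraries held 15536084 to 16961817 reads assigned to genes. Rbl1, which encodes p107, had a normalized count of 497 to 646 in THC and 14.5 to 42.0 in TKO, matching the labels of all 6 libraries. Rb1 rose (log2 change 0.82, SE 0.13, adjusted p = 0.00066) and Rbl2 had a log2 change of -0.13 (SE 0.14, adjusted p = 0.544). The floxed parts of these genes are not given in the labels, so their whole-gene counts do not check recombination. Markers of the sorted lineage were present: all 10 neural stem cell and astrocyte markers passed the filter, with a summed normalized count of 91191 to 164241 in THC and 117652 to 152435 in TKO. Of these 10, 3 rose and none fell: Gfap, an astrocyte and stem cell filament gene (log2 change 2.01), Nes, the nestin gene (1.21), and Prom1 (0.51). The median log2 change of the 10 was -0.001, and Slc1a2 (-0.54), Aldh1l1 (-0.405), Aqp4 (-0.39) and Sox2 (0.37) were among those that did not pass. For each marker count given here, the share over all genes tested was 14.3% higher and 13.6% lower (limma, adjusted p under 0.05). Markers of other cells were also present and differed by genotype. All 7 oligodendrocyte markers fell, with a sum of 88291 to 96329 in THC and 16201 to 26693 in TKO. Of 11 endothelial and mural markers 8 fell (sum 8722 to 15595 in THC, 3744 to 5874 in TKO). Of 8 neuroblast markers 4 fell (24357 to 35085 and 17087 to 24158). Among 8 microglia markers 3 rose (939 to 4035 and 1283 to 5981, highest in the February library of each genotype). Among 7 ependymal markers 3 passed as lower, each with overlapping groups (sum 4161 to 14395 and 5151 to 6914). These 3 falls rested on the November libraries, where Ccdc153, Tmem212 and Rarres2 changed by -1.355, -2.10 and -1.52. Between THC 1 and TKO 1 the same genes were at 0.11, 0.255 and -0.02. The median log2 change of the ependymal list was -1.21 for November but 0.76 for February, so its direction was not shared by the batches. Of 6 fibroblast markers, Col1a2 rose and Lum fell (1784 to 8043 and 3360 to 6011), near the general share in each direction. None of these markers was at 0 in all libraries, and their part in the results below was not tested. In bulk RNA of sorted cells, fewer cells of a type and less RNA per cell cannot be told apart.

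Most of the envelope genes were higher in TKO and none was lower. Of the 9, 7 rose at an adjusted p under 0.05 (limma on log2 of the normalized count + 1, with batch as a covariate, Benjamini-Hochberg over all genes tested), where 14.3% of all genes tested rose and 13.6% fell. The risers were all 3 lamin genes, Tmpo, Emd, Lbr and Banf1, by 1.64-fold to 2.87-fold, and in each of them every TKO library lay above every THC library. That separation upward held for 19.4% of all genes tested. Sun1 and Sun2 did not pass. The median log2 change of the 9 genes was 0.86, beside -0.0003 over all genes tested.

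**Figure D1:**
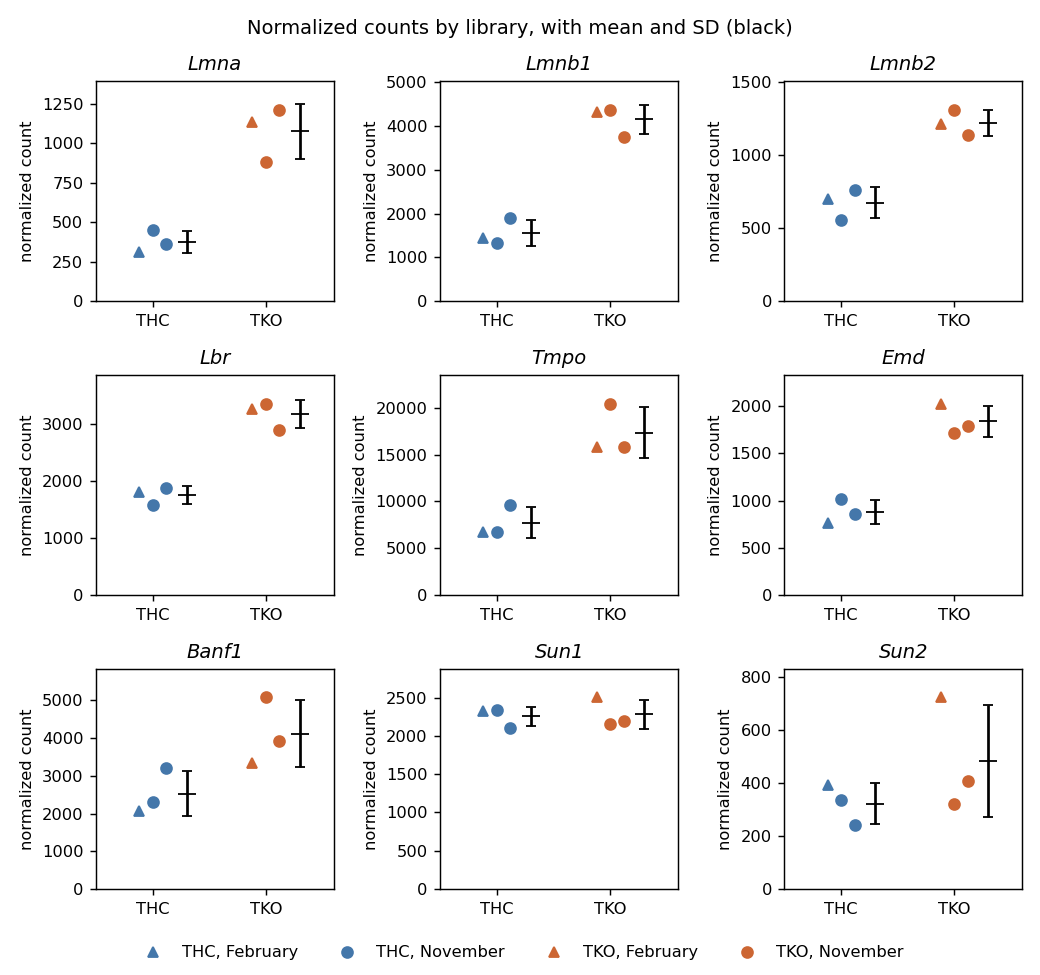
Normalized counts (vertical axes, from 0) of the 9 genes in each THC and TKO library, triangles for February and circles for November, with the mean and SD of each genotype in black. The TKO points lie above the THC points in every panel except those of Sun1 and Sun2, where they overlap.

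Lmnb1, the gene of lamin B1 (GRCm38 chromosome 18, 56707813 to 56753424), was at a normalized count of 1447, 1331 and 1889 in THC 1 to 3 and 4314, 4364 and 3754 in TKO 1 to 3. The TKO libraries were thus all high and the lowest of them was well above THC 3, the highest control. The THC mean was 1556 ± 294 and the TKO mean 4144 ± 339 (± SD, n = 3 per genotype), a log2 change of 1.43 (SE 0.15, 95% interval 1.10 to 1.75, adjusted p = 2.8e-05). The change was 1.575 within the February pair, which has 1 library per genotype and no test of its own, and 1.35 among the November libraries. Lmnb1 RNA therefore did not fall in TKO by any of these measures.

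Lmna, the gene of lamins A and C (chromosome 3, 88480147 to 88509956), was at 312, 452 and 361 in THC and at 1132, 878 and 1211 in TKO. Its groups were far apart, and TKO 2 was the lowest TKO library. The log2 change, 1.52 (SE 0.17, adjusted p = 5.4e-05; 374.9 ± 71.4 against 1074 ± 174), was the largest of the 9 genes, although its 95% interval, 1.14 to 1.90, overlaps that of Lmnb1. Counts are per gene, so the lamin A and lamin C transcripts were not separated. Lmnb2, the gene of lamin B2 (chromosome 10, 80901203 to 80918245), was at 702, 559 and 766 in THC and at 1214, 1313 and 1137 in TKO. Its groups did not overlap either, and its log2 change was 0.86 (adjusted p = 0.00099, SE 0.15), or 0.79 for February and 0.90 for November.

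Within a library the lamins can be compared with no scaling between libraries. The log2 ratio of Lmnb1 to Lmna counts was 2.215, 1.56 and 2.39 in THC and 1.93, 2.31 and 1.63 in TKO. These values interleave, and the difference of -0.095 was smaller than the SD of either genotype (0.44 and 0.34; two-sided exact permutation test p = 0.8, where the smallest p that 3 against 3 allows is 0.1). For Lmnb1 to Lmnb2 the log2 ratio was 1.045, 1.25 and 1.30 in THC and 1.83, 1.73 and 1.72 in TKO. Here the genotypes did not overlap, with a difference of 0.56 that was 0.78 in February and 0.45 in November (exact permutation p = 0.1, or 0.2 after Benjamini-Hochberg adjustment over the 4 ratios computed). The planned ratio was Lmnb1 to Lmna, and the other 3 were added after values had been seen.

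Levels of different genes were compared as normalized counts per kb of annotated exon. The length is the union of exons over all annotated transcripts, 5838 bases over 7 for Lmna and 2962 over 2 for Lmnb1. Expressed transcripts can be shorter than this union, so levels, shares and order between genes are approximate. Lmnb1 was the most abundant lamin RNA in both genotypes (525 ± 99.3 per kb in THC, 1399 ± 114 in TKO), ahead of Lmnb2 (158 ± 24.7 and 285 ± 20.6) and Lmna (64.2 ± 12.2 and 184 ± 29.8). None of these 3 overlapped its neighbour in the order within a genotype. As a share of the summed lamin counts per kb, Lmnb1 took 70.1 ± 2.25% in THC and 74.8 ± 1.80% in TKO, Lmnb2 21.1 ± 1.81% and 15.3 ± 0.612%, and Lmna 8.80 ± 2.61% and 9.91 ± 2.07% (SD, n = 3). The Lmnb2 share was lower in every TKO library (14.7 to 15.9%) than in every THC library (19.8 to 23.2%), while the Lmna shares overlapped. Among all 9 genes, Banf1 was highest per kb in both genotypes (1687 ± 401 and 2753 ± 591). The THC order then ran through Tmpo (702 ± 152), Lmnb1, Lbr (369 ± 32.4), Emd (349 ± 51.1), Sun1 (297 ± 16.7), Lmnb2, Lmna and Sun2 (59.3 ± 14.0). In that order Tmpo and Lmnb1, Lbr and Emd, Emd and Sun1, and Lmna and Sun2 were neighbours that did not differ beyond their spread. In TKO the levels per kb were 1578 ± 243 for Tmpo, 732 ± 65.4 for Emd, 667 ± 50.7 for Lbr, 301 ± 25.2 for Sun1 and 89.1 ± 39.1 for Sun2, so Emd and Lbr changed places within their spread.

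**Figure D2:**
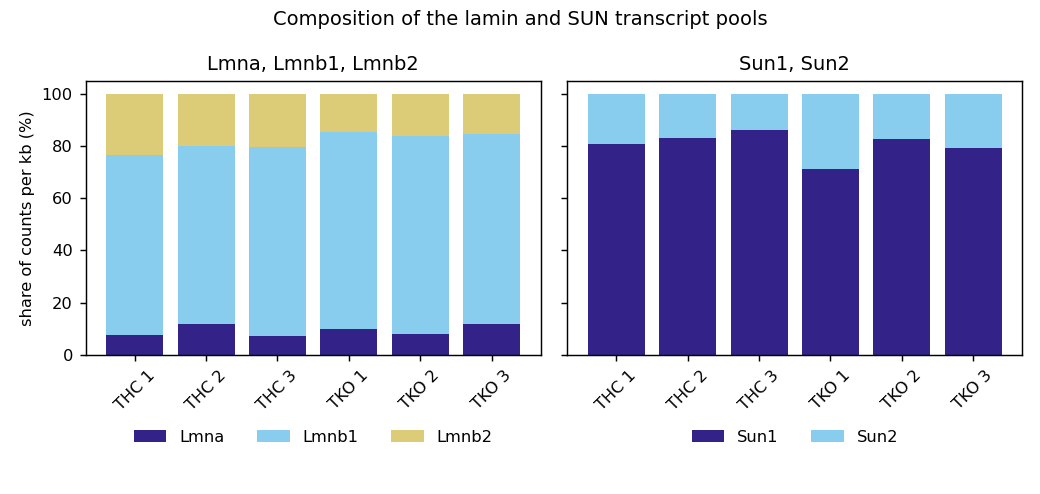
Share (%) of each gene in the summed normalized counts per kb of exon, by library, for the 3 lamin genes (left) and the 2 SUN genes (right). The Lmnb2 share is smaller in the 3 TKO libraries, and TKO 1 has the largest Sun2 share (28.8%).

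Tmpo encodes thymopoietin, whose LAP2 isoforms bind lamins and BAF at the inner nuclear membrane or in the nucleoplasm (chromosome 10, 91147571 to 91181315). Its counts were 6726, 6786 and 9648 in THC and 15828, 20445 and 15789 in TKO. The groups were far apart, with THC 3 and TKO 2 the high libraries of their genotypes. The log2 change was 1.18 (SE 0.17, adjusted p = 0.00038). The isoforms share one gene count and were not separated.

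Lbr encodes the lamin B receptor, an inner nuclear membrane protein that binds B-type lamins and HP1 and also has sterol reductase activity (chromosome 1, 181815335 to 181843046). It was at 1807, 1587 and 1883 in THC and at 3265, 3356 and 2900 in TKO. Both genotypes were tight around their means (a coefficient of variation of 8.77% and 7.60%), and the log2 change of 0.85 (SE 0.13, adjusted p = 0.00036) was 0.85 in each batch.

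Emd, the X-linked gene of the LEM-domain protein emerin (chromosome X, 74254687 to 74261548), was at 759, 1014 and 861 in THC and at 2027, 1713 and 1785 in TKO. Every TKO library was high, with TKO 1 the highest. Its log2 change was 1.07 (SE 0.14, adjusted p = 0.00016), larger in February (1.42) than in November (0.90). Xist, which coats the inactive X, had no reads in TKO 1 and 944 to 2047 in the other libraries. Without TKO 1 the change of Emd was 0.90 (adjusted p = 0.0013), which is the November change again, since the batch term then takes up THC 1.

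Banf1 encodes BAF, which cross-bridges DNA and binds LEM-domain proteins (chromosome 19, 5364638 to 5367168). Its counts were 2056, 2317 and 3200 in THC and 3344, 5081 and 3930 in TKO. THC 3 came close to TKO 1, and the groups only just separated. The log2 change was 0.71 (SE 0.15, adjusted p = 0.0044). Banf1 overlaps Eif1ad on the opposite strand, which rose by 0.54 (SE 0.12, adjusted p = 0.0064), and the library chemistry keeps no strand, so reads in the overlap cannot be assigned to one gene. The same limit holds for the opposite-strand neighbours Dnah14 (at Lbr), Gm26765 (at Tmpo), 4930520M14Rik (at Sun1) and Gm16575 (at Sun2). On their own strands, Emd overlaps the pseudogene Gm14686 and Lbr the rRNA gene Gm26004.

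Sun1 and Sun2 encode the SUN-domain components of the LINC complex, which joins nesprins of the outer membrane to the lamina. Sun1 (chromosome 5, 139200637 to 139249840) was at 2323, 2334 and 2109 in THC and 2503, 2157 and 2189 in TKO. The values interleave. The log2 change was 0.02 (SE 0.12, adjusted p = 0.937), and its 95% interval, -0.24 to 0.27, excludes a rise as large as that of any of the 7 risers. Sun2 (chromosome 15, 79724070 to 79742536) was at 391, 333 and 240 in THC and 722, 319 and 408 in TKO. Only TKO 1 stood clearly above the controls, and TKO 2 lay below THC 1 and THC 2. Its log2 change was 0.53 (SE 0.19, 95% interval 0.11 to 0.94, adjusted p = 0.0596), 0.88 in February and 0.35 in November. It passed without THC 2 (0.71, adjusted p = 0.0171) or without TKO 2 (0.68, adjusted p = 0.0381), and not without any other library. The log2 ratio of Sun2 to Sun1 was -2.57, -2.81 and -3.13 in THC and -1.79, -2.76 and -2.425 in TKO, a difference of 0.51 within overlapping groups (exact permutation p = 0.2, adjusted 0.267).

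**Figure D3:**
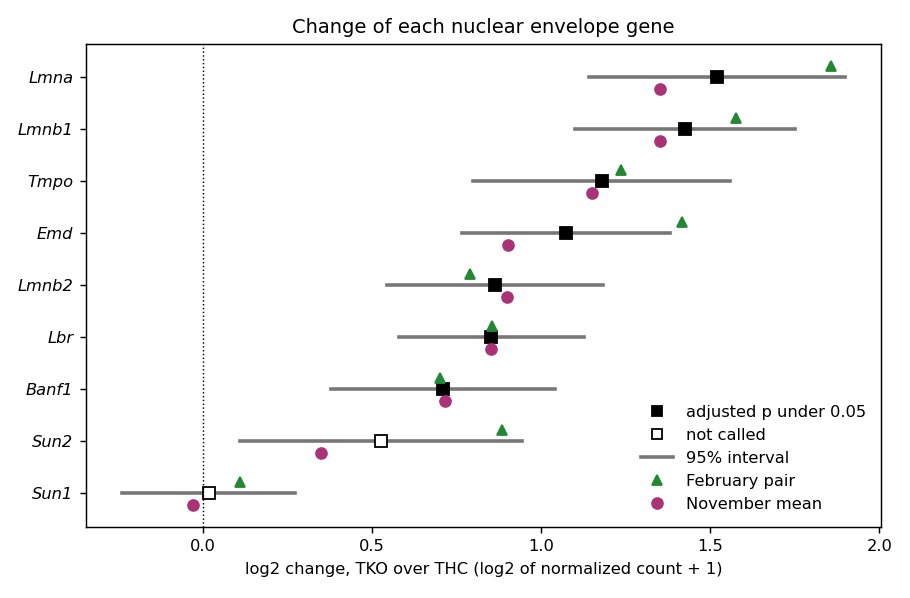
Log2 change, TKO over THC, of each gene with its 95% interval (grey), filled squares for an adjusted p under 0.05, triangles for the February pair and circles for the November means. The intervals of the 7 risers and of Sun2 (0.11 to 0.94, not past the adjusted threshold) lie above 0, and the February and November values of Lbr (0.85) and Banf1 (0.70 and 0.71) nearly coincide.

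The change of none of the 9 genes was shown to differ between February and November. A batch-by-genotype term in limma gave adjusted p-values of 0.82 or more for each, with 0 of the 9 also at an unadjusted p under 0.05, where 0.341% of all genes passed at the adjusted threshold and 1204 at the unadjusted one. In the authors' deposited table the same 7 genes had an adjusted p under 0.05, as did 15% of the genes with a deposited value. There the log2 fold change of Lmnb1 was 1.41 (SE 0.16, adjusted p = 2.3e-16), that of Sun2 was 0.53 (SE 0.22, adjusted p = 0.059) and that of Sun1 was 0.015.

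Because most of these genes moved together, the 250 bases before their RefSeq start sites (GRCm38.p6) were searched for letters associated with cell-cycle promoters. Entries were found for 8 of the 9 genes, in 13 windows. The gene without an entry was Lmnb1, which was not searched. The searches, on both strands, were for 4 spellings of the E2F site (TTTCCCGC, TTTGGCGC, TTTCGCGC and TTTGCCGC), the cell cycle homology region CHR (TTTGAA, or TTCAAA read from the other strand) and the CCAAT box (CCAAT or ATTGG). No matches overlapped in the windows shown. Shown are Lbr and 2 starts of Tmpo, which rose, and 1 start of Sun1, which did not pass. They show what the matches look like and do not sort risers from the rest. Each is 5′ to 3′ on the gene's strand, with matches in capitals.
Lbr, chr1:181842402-181842651, minus strand: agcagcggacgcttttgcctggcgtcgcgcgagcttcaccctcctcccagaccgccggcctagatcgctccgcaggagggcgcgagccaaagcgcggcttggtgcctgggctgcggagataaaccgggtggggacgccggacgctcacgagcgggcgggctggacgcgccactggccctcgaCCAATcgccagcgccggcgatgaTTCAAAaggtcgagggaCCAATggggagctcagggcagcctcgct
Tmpo upstream start, chr10:91171620-91171869, minus strand: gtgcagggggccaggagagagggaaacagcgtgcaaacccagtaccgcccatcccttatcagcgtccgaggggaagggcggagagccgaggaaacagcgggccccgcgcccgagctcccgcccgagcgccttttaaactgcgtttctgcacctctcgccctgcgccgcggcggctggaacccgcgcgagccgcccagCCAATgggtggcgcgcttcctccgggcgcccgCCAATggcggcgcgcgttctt
Tmpo downstream start, chr10:91170551-91170800, minus strand: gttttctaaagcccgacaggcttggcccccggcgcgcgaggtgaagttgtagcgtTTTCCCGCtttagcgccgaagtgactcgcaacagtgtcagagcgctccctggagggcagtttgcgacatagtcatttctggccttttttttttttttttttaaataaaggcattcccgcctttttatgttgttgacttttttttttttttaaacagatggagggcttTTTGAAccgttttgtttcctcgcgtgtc
Sun1, chr5:139200387-139200636, plus strand: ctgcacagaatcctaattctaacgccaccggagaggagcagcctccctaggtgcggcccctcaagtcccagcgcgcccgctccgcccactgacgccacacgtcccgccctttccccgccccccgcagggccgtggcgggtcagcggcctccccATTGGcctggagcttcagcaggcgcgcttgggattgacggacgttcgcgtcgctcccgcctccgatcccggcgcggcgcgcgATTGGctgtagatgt

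In the Lbr window a CHR match began 45 bases before the start, between CCAAT boxes at 68 and 28 bases. The upstream Tmpo start had CCAAT boxes at 53 and 21 bases, and the downstream start, which lies within the span of the longer transcript, had an E2F match at 195 bases and a CHR match at 28 bases. Sun1 had CCAAT boxes only, at 97 and 15 bases. Over the 13 windows, an E2F match was in 2 (Banf1 and Tmpo), a CHR match in 3 (Lbr, Sun2 and Tmpo) and a CCAAT box in 8, from 7 genes. In the windows searched, matches did not follow the calls: Sun2, which did not pass, had a CHR match at 95 bases and CCAAT boxes at 85 and 41 bases, much like Lbr. Among the risers, Lmna and Emd had a CCAAT box but no E2F or CHR match, and Lmnb2 had no match in either window. The Lmna windows ended at 88493562 and 88503602, inside the annotated gene, whose upstream end at 88509956 was not searched. Also inside their annotated genes were all windows of Lbr, Tmpo and Banf1, the Lmnb2 window ending at 80906662 and the Sun1 window starting at 139214908. The bases before the annotated gene were not searched for Lbr, Tmpo or Banf1. The Banf1 window with the E2F match lay in annotated exons over all its 250 bases. Of all 32851 windows of this length outside chromosome 18, 1.86% held an E2F match, 16.0% a CHR match and 33.8% a CCAAT box. These shares are not matched for base composition, and a match is a description of letters, not of binding.

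Lmnb1 was next set beside 40 cycling genes, a list of replication and mitosis genes. All 40 rose, where 14.3% of all genes tested rose and 13.6% fell. Their median log2 change was 1.43, with a range of 0.91 for Mcm7, a helicase subunit, to 2.11 for Cdt1, a licensing factor. Of the 40, 21 rose by more than Lmnb1. Kif23, a kinesin of cytokinesis, rose by 1.53 (SE 0.12, adjusted p = 4.4e-06), Gins2 of the replicative helicase by 2.03, the mitotic cyclin gene Ccnb2 by 2.00 and the topoisomerase gene Top2a by 1.615. Mki67, which encodes Ki-67, stood at 3513 ± 579 against 12076 ± 1717 and rose by 1.78 (adjusted p = 7.1e-06, SE 0.15).

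Lmnb1 was also close to the cycling genes library by library. The mean log2(normalized count + 1) of the cycling genes was 10.61, 10.53 and 11.065 in THC and 12.135, 12.31 and 12.10 in TKO, and that of Lmnb1 was 10.50, 10.38 and 10.88 and then 12.075, 12.09 and 11.875. Lmnb1 minus this mean was -0.11, -0.15 and -0.18 in THC and -0.06, -0.22 and -0.22 in TKO, a span of less than 0.2 in libraries whose cycling mean spans more than 1.7. Among the controls, THC 3 was high in both. The offset itself depends on gene lengths and has no meaning. Against Mki67 alone, the log2 ratio of Lmnb1 was -1.21, -1.19 and -1.14 in THC and -1.24, -1.51 and -1.86 in TKO, lower by 0.36 (exact permutation p = 0.1, adjusted 0.2) and by 0.03 in February and 0.52 in November.

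**Figure D4:**
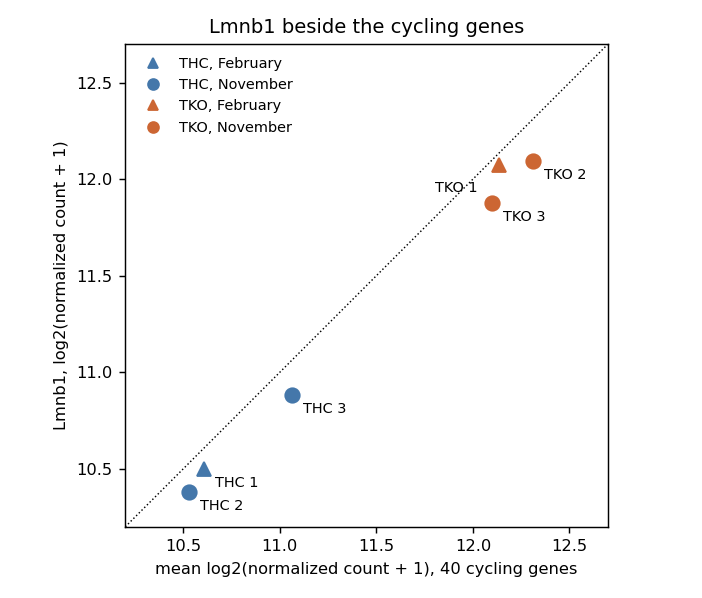
Lmnb1 (vertical) against the mean of 40 cycling genes (horizontal), both log2(normalized count + 1), by library, with a dotted line of slope 1. The 6 libraries lie 0.06 to 0.22 below the line, with THC 3 highest among the controls on both axes.

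Among 11904 other genes with a mean normalized count of at least 100, those with the profile nearest to Lmnb1 over the 6 libraries were Usp1, a deubiquitinase of DNA repair (Euclidean distance of mean-centred log2 values 0.107), Shcbp1 (0.115), the chromokinesin gene Kif4 (0.136), the checkpoint ATPase gene Trip13 (0.149) and the Fanconi anaemia gene Fanca (0.150). Their log2 changes were 1.36 to 1.48. The genes nearest to Lmna were Tnfsf9, the ligand of 4-1BB (distance 0.259), Galm, a galactose enzyme (0.306), the RNA-editing gene Apobec1 (0.361), the uracil glycosylase gene Ung (0.362) and the RNA sensor gene Ifih1 (0.363). Those of Sun2 were Sulf2 (0.315), Grn (0.372), Vipr2 (0.378), Pcdh8 (0.390) and Jmjd4 (0.396), and each was, like Sun2, above its other libraries in TKO 1. All distances share the same 6 libraries and are descriptions.

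Senescence was examined with 35 genes that are commonly raised in senescent cells (cyclin-dependent kinase inhibitors and secreted factors), of which 25 passed the filter. Of these 17 rose, 3 fell and 5 did not pass, where 14.3% of all genes tested rose and 13.6% fell. Their median log2 change was 1.676 (1.49 among February and 1.58 among November libraries). In 13 of the 17 the groups did not overlap, and upward separation held for 19.4% of all genes tested, called or not. With no filter, 15 of 33 rose and 3 fell. Without TKO 2, 1 fell, and with no batch term 10 rose. Cdkn1a, the inhibitor p21, stood at 963 ± 114 against 5422 ± 617 and rose by 2.49 (adjusted p = 9.5e-07, SE 0.14). The stress cytokine gene Gdf15 rose from 7.58 ± 2.99 to 247 ± 87.99, by 4.83, and Il6 from 4.96 ± 4.405 to 169.6 ± 100.9, by 4.89. In THC 1 to 3, Gdf15 was at 11.03, 5.67 and 6.06 and Il6 at 10.02, 2.83 and 2.02. Gdf15, Il6 and Areg (3.01, 5.67 and 5.05 in THC) thus passed the filter only through their TKO values, while other low genes of the list dropped out. Cxcl2 (108.3, 2.83 and 5.05 in THC) and Il1b (165.4, 15.11 and 8.08) would not have passed on THC values alone either. The count of 17 risers and the median of the list include these genes and are not free of this selection. The secreted factor genes Vegfa, Igfbp7 and Hgf fell (-0.815, -0.78 and -0.85). Glb1, which encodes the enzyme behind senescence-associated beta-galactosidase staining, had a log2 change of -0.17 (adjusted p = 0.384). Cdkn2a, the p16 and p19 locus, was below the filter, at a normalized count of 0, 3.78 and 1.01 in THC and 5.86, 4.30 and 1.93 in TKO. Several genes of this list are also made by microglia, whose markers had a median log2 change of 0.96, and their part in this count was not tested.

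Among genes that, like Lmnb1, are commonly lowered in senescent cells, none passed as lower. Of 7, 3 rose and none fell, with a median log2 change of 0.21, where 14.3% of all genes tested rose and 13.6% fell. Hmgb2, a chromatin protein gene, stood at 10258 ± 2549 against 26807 ± 7599 and rose by 1.375 (SE 0.19, adjusted p = 0.00018), Ezh2, the Polycomb methyltransferase, by 0.92 and Hmgb1 by 0.62. Hmgb3 (0.07), Sirt1 (0.21), Bmi1 (-0.22) and Cbx7 (-0.39) did not pass, and without THC 3 there was 1 fall. Lmnb1 and Cdkn1a were thus both higher in each TKO library, in RNA from whole pools of cells, which does not tell whether the same cells held both.

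The lamina and LINC partner genes did not all move in the same direction. Of 21 measured lamina and LINC partner genes, 8 rose and 3 fell, where 14.3% of all genes tested rose and 13.6% fell. Their median log2 change was 0.21, and the count of risers was 5 without THC 1, 5 without TKO 1 and 4 without TKO 3. Nemp1 and Nrm, which encode inner nuclear membrane proteins, both rose, Nemp1 by 1.73 (adjusted p = 3.8e-06) and Nrm by 1.70 (adjusted p = 1.1e-05), and Tmem43 by 0.63. Cbx5, the HP1 protein that binds LBR, rose by 0.69. Tm7sf2, the sterol reductase related to LBR, went from 435 ± 78.98 to 92.3 ± 19.2, a fall opposite to the rise of Lbr (-2.23 with an SE of 0.23, adjusted p = 2.2e-05). The muscle-enriched envelope gene Plpp7 and the nesprin-4 gene Syne4 fell, with log2 changes of -1.16 and -1.505. Among the partners of SUN proteins, the nesprin gene Syne1 had a change of -0.33 (adjusted p = 0.281), while Syne2 rose by 0.57 and Syne3, a low gene at 13.8 ± 2.13 against 43.1 ± 17.1, by 1.52 (adjusted p = 0.0183), and the emerin relatives Lemd2 (-0.02) and Lemd3 (0.01) did not pass.

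Few of the genes for lamin maturation passed the test. Of 7 lamin processing genes 1 fell and none passed as higher (median -0.06), and without TKO 3 there was 1 rise. Over all genes tested 13.6% fell and 14.3% rose, so 1 fall of 7 is near the general share. The gene that fell was Narf, a prelamin A binding factor (-0.93, SE 0.16, adjusted p = 0.0011). Zmpste24, the protease that completes prelamin A cleavage, stood at 1791 ± 274 against 1735 ± 170 (-0.04), and Icmt, the methyltransferase, had a log2 change of -0.06 (adjusted p = 0.828). The farnesyltransferase subunit genes lay just outside the threshold in opposite directions, Fntb at 0.52 (95% interval 0.11 to 0.93, adjusted p = 0.0595) and Fnta at -0.32 (-0.57 to -0.07, adjusted p = 0.0586). Pggt1b, of a related prenylating enzyme, was at 0.31 (adjusted p = 0.132), with every TKO library above every THC library. No difference between these changes and those of the lamin genes was tested.

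Among 22 genes of envelope breakdown and reassembly, 6 rose and 4 fell, with a median of -0.001, where 14.3% of all genes tested rose and 13.6% fell. Those that rose with Banf1 included the kinases that phosphorylate BAF, Vrk1 (0.70, SE 0.13, adjusted p = 0.0021) and Vrk2 (1.29), and the Ran system genes Rcc1 (1.40, SE 0.16, adjusted p = 5.1e-05), Ran (0.67) and Kpnb1 (0.61). The ESCRT-III genes Ist1 (-0.55) and Chmp7 (-0.40), the phosphatase scaffold gene Ppp2r1a (-0.505) and the lipid phosphatase gene Lpin1 (-0.45) fell. The count of falls was 2 without THC 1, TKO 1 or TKO 2, and 1 without TKO 3.

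Most nuclear pore genes rose. Of 29 measured, 18 rose and none fell, where 14.3% of all genes tested rose and 13.6% fell. The median change was 0.52 on the log2 scale (February 0.50, November 0.53). Aaas rose most (1.24, SE 0.15, adjusted p = 7.7e-05), followed by the membrane nucleoporin gene Ndc1 (1.01) and the inner ring gene Nup205 (0.965). Nup88 (0.07), Rae1 (0.06), Sec13 (-0.03) and Nup214 (-0.06) did not pass.

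**Figure D5:**
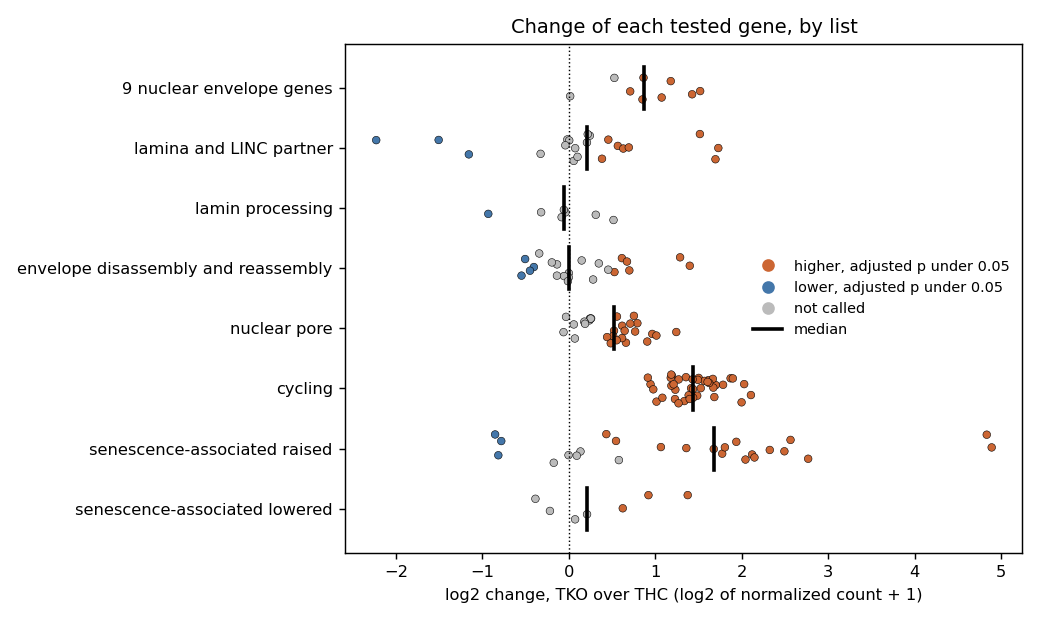
Log2 change, TKO over THC (horizontal), of every tested gene of the 9 nuclear envelope genes and of each list, coloured by call, with the median as a black bar. The cycling genes lie between 0.91 and 2.11, the lamin processing genes centre on -0.06, and the lamina and LINC partners spread from -2.23 to 1.73.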

How the data were processed

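RNA-seq was measured in 3 THC and 3 TKO libraries. Per the labels' protocols, RNA was isolated with a PicoPure kit, at least 35 ng was converted with SMART-Seq v4 and libraries were made with Nextera XT. HISAT2, featureCounts (Subread), the GRCm38 build and DESeq2 appear in the submitters' processing notes, without versions, and the annotation used is not given there. The authors' deposited table holds a normalized count per gene and library, a signal equal to reads divided by 1 factor per library: every value is a whole multiple of 1 step per column, within 0.001 of a read, and the step gave the depths quoted. Per the file headers, it also holds log2 fold changes, p-values and the Wald and weight scores of the authors' fit.

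From these values, limma (version 3.58.1, R 4.3.3) was fitted with an intensity trend on log2(value + 1), with batch and genotype, over 17278 genes at 10 or more in at least 3 libraries (3 residual and 8.9 prior degrees of freedom). It was also run on simulated counts with a fixed dispersion and no batch effect, a simpler setting than these data. Log2 changes understate low genes. P-values measure the spread between pools of mice, which the series calls biological replicates. Spans, exon lengths and transcripts come from GENCODE M21 (GRCm38), and promoter windows from RefSeq. The 9 genes and the lists were chosen with earlier results of these data known. Named are the 9 genes, the targeted genes, the 3 members per list and direction with the smallest adjusted p, a fixed panel (Mki67, Top2a, Cdkn1a, Cdkn2a, Hmgb2) and the 5 nearest profiles. Other list members were picked after their values were seen. Of 222 list entries 219 matched by symbol. Alternatives varied the pseudocount, filter, batch term, replicate block, scaling and libraries.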

Additional observations from a re-analysis of the deposited data

How the results depend on the processing

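The 7 genes that rose kept their direction and stayed past the threshold under all 15 alternatives run (pseudocount 5 or 0.5, no filter, a filter of 50, no batch term, a replicate block, TMM scaling, equal library totals, each of the 6 libraries left out, and November alone, which was added after seeing the data). Leaving out THC 1, leaving out TKO 1 and November alone gave the same log2 changes, since a lone February library is taken up by the batch term. For Lmnb1 the log2 change ranged from 1.303 to 1.592 (adjusted p 7.9e-06 to 0.00028), and for Banf1, the weakest, from 0.576 to 0.842 (adjusted p 0.0019 to 0.0267). Leaving out 1 library gave 7 to 8 genes higher. Sun2 passed without THC 2 (0.712) or TKO 2 (0.678), and Sun1, never called, was at -0.030 without THC 1, without TKO 1 or in November alone and at -0.013 without THC 3, with a range of -0.030 to 0.071 over the libraries left out. The Lmnb1 to Lmna ratio difference ranged from -0.344 to 0.073 with 1 library left out. For the lamina and LINC partners the count of risers was 5 with no batch term, 5 in November alone and 4 to 6 with 1 library left out. Falls of reassembly genes numbered 2 with the replicate block, 2 in November alone and 1 to 3 with 1 library left out. For lamin processing genes there were 2 falls with equal library totals and 0 to 1 rises with 1 library left out. For the genes raised in senescence the risers numbered 10 with no batch term, and the falls 1 to 3 with 1 library left out; for those lowered the falls were 0 to 1. The cause of these shifts was not tested. Same-numbered libraries of the 2 genotypes deviated together with correlations of 0.231, -0.106 and 0.141. THC 2 and THC 3 correlated best with another number, and THC 1 with TKO 1. Batch was left in these correlations, and with 2 November libraries a genotype they could neither show nor exclude a pairing by number. With the replicate block 2147 genes rose and 1922 fell, beside 2469 and 2345, and the count of 7 did not change. The planned count-model fits on recovered reads were not run, because an automated check did not recognise whole reads in 2 columns whose step lies close to 1, although their values are whole multiples of it; the deposited fit stands in their place. With 3 libraries a genotype, exact tests of ratios cannot go below 0.1.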
